A study of Homo sapiens with 12 samples.

Results

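The 8 transcripts described here encode the subunits of the AP-1 transcription factor that belong to the FOS family (FOS, FOSB, FOSL1 and FOSL2), the JUN family (JUN, JUNB and JUND) and ATF3. They were taken from the count table by their symbols, and all 8 were found among its 26334 gene symbols. The table came from a transcription shut-off time course in A673, an established cell line of Ewing sarcoma, under the label shA673-1c. The cells were grown with blasticidin and zeocin in all samples, and what the prefix of the name stands for is not given in the sources used here. Every sample was treated in 6-well plates with 5 µM actinomycin D, which stops RNA synthesis, for 0, 1, 2 or 4 h. There were 3 biological replicates per time point and 12 libraries in all, made from poly(A) RNA with a stranded kit. The time course was made to estimate transcript half-lives for a study of long RNAs exported in extracellular vesicles. No untreated culture followed over the same hours is among the samples, so hours in culture and hours of actinomycin D cannot be told apart.

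AP-1 is a dimer of basic leucine zipper proteins that binds short palindromic DNA sites and links growth factor, stress and cytokine signals to transcription. FOS proteins pair only with partners such as the JUN proteins, whereas JUN proteins can also pair with each other. FOS, FOSB, JUN, JUNB and ATF3 are textbook immediate early or stress-induced genes, and messenger RNAs of this kind are known for rapid turnover that is driven in part by AU-rich elements in their 3′ UTRs.

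Library totals ranged from 9147018 to 11194705 counts. Of 11 markers fixed for the Ewing sarcoma line, 10 had counts in every library and CD99 was listed at 0 in all 12. Of 12 defining markers of leukocytes, endothelium, epithelium and muscle, CD3E, MYOD1 and MYOG were at 0 throughout, while CD68 (95 to 144 counts), KRT8 (115 to 237 counts), the muscle gene DES (5 to 30 counts), PECAM1 and EPCAM (1 to 6 counts each) were present in every library. All values below are CPM (counts scaled to library size) after edgeR's TMM scaling unless stated otherwise. Such values are relative to the other poly(A) transcripts of the same library, and no spike-in RNA is named in the labels. A loss of cells and a loss of RNA per cell cannot be told apart in these bulk samples. All 8 transcripts passed the filter of a mean of 10 counts, FOS (mean 12.3 counts) and FOSB (mean 10.3 counts) only narrowly. Both FOS and FOSB did so through their 0 and 1 h libraries.

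The 3′ UTRs of the 8 transcripts were searched for the AU-rich pentamer ATTTA and for the nonamer TTATTTATT, in which the pentamer is embedded, on the transcript strand of the Ensembl canonical transcripts (GENCODE version 44, GRCh38). For each gene the 30-base stretch with the most whole pentamers is shown, because its turnover is the subject of the results that follow. Where several stretches tied, the one nearest the stop codon was taken. Pentamers are in capitals and every stretch lies in the 3′ UTR of the gene's last exon.
FOS chr14:75282057-75282086 (+): ttgtgtttttaATTTATTTAttaagatgga
FOSL2 chr2:28416348-28416377 (+): aattgacATTTAttttattATTTAttttaa
JUN chr1:58781336-58781365 (-): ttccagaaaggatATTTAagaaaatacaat
JUNB chr19:12793059-12793088 (+): aatatatttgtgtATTTAacagggagggga
FOSL1 chr11:65892272-65892301 (-): gagggcagctgctATTTAttttcctaaaga
JUND chr19:18279998-18280027 (-): tcgattctgccctATTTAtgtttctactcg
ATF3 chr1:212619764-212619793 (+): cctcaactccaggATTTAggccttaacaca
FOSB chr19:45473876-45473905 (+): tcctgctggagtgATTTAtactgtgaaatg

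FOS carried 5 pentamers in an 806-base 3′ UTR, 6.20 per kb, and 2 of them overlap in the stretch shown. FOSL2 carried 9 pentamers over 4869 bases (1.85 per kb), JUN 3 over 1284 bases (2.34 per kb) and JUNB 2 over 500 bases (4.00 per kb). FOSL1 and JUND had 1 pentamer each, in 3′ UTRs of 837 and 747 bases, and ATF3 and FOSB had 3 each, in 1220 and 2167 bases. A nonamer was found only in FOS and FOSL2, 1 in each. Over the 10819 tested genes with an annotated 3′ UTR, pentamers occurred at 2.31 per kb, 75.1% of genes had at least 1, and 89.9% had no nonamer. The map of pentamer positions shows that the pentamers of FOS lie close together at the 3′ end, while those of JUN and FOSB are spread out.

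**Figure D1:**
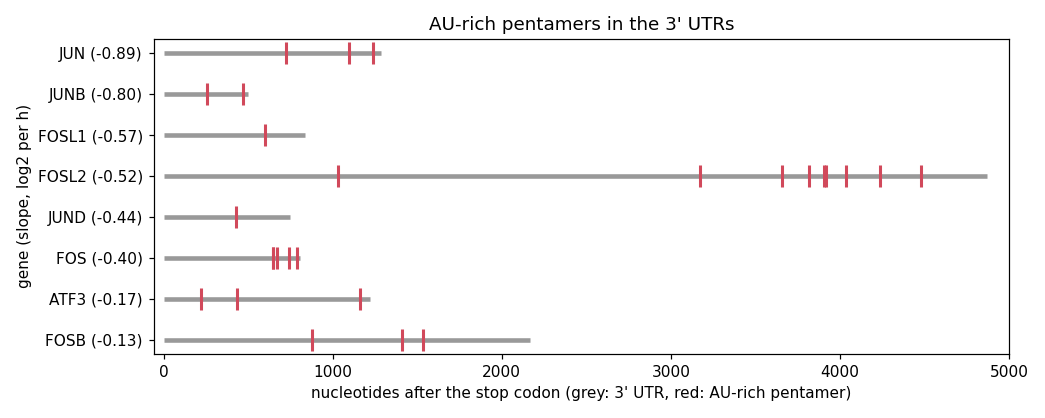
Position of each AU-rich pentamer (red) along the 3′ UTR (grey) of the canonical transcript, in nucleotides after the stop codon, for the 8 AP-1 genes ordered by slope (log2 change per hour, in parentheses). FOSL2 has the longest 3′ UTR and 9 pentamers, and FOSL1 and JUND have 1 each.

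Before actinomycin D, FOSL1 and JUND were the most abundant AP-1 transcripts per unit of transcript length, and FOS and FOSB the least abundant. At 0 h FOSL1 stood at 22.2 ± 7.74 CPM per kb (mean ± SD of the 3 libraries, range 13.7 to 28.8) and JUND at 22.1 CPM per kb (range 19.0 to 27.7), and their ranges overlap. JUN followed at 12.7 CPM per kb (range 10.2 to 14.8), below every JUND library and overlapping the lowest FOSL1 library. ATF3 stood at 6.67 CPM per kb (range 5.77 to 7.15) and FOSL2 at 4.67 CPM per kb (range 3.36 to 5.85), which overlap by a small margin. JUNB was lower, at 2.59 CPM per kb (range 2.16 to 2.85), and FOS (0.914, range 0.779 to 1.08) and FOSB (0.302, range 0.235 to 0.391) were near the detection limit of these libraries, with 17 to 23 and 10 to 15 counts per library. JUNB, FOS and FOSB did not overlap one another or any gene above them.

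Over the 4 h of actinomycin D, 7 of the 8 transcripts fell and none rose. In a straight line fit of log2 expression on time across all 12 libraries (edgeR's quasi-likelihood test, Benjamini-Hochberg adjustment over 12032 tested genes), 32.1% of all tested genes were called lower and 30.7% higher at an adjusted p below 0.05. The median slope of the 8 transcripts was -0.48 log2 per h, against 0.0093 over all tested genes. FOSB, with the fewest counts, was the 1 member not called. Scaling to GAPDH and ACTB instead of TMM moved the median slope of all genes by -0.14 log2 per h and left every member's slope below 0. All 8 slopes were lower with that scaling, so the half-lives and intervals below hold for TMM scaling only. They also come from fits that do not pair libraries by replicate number.

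**Figure D2:**
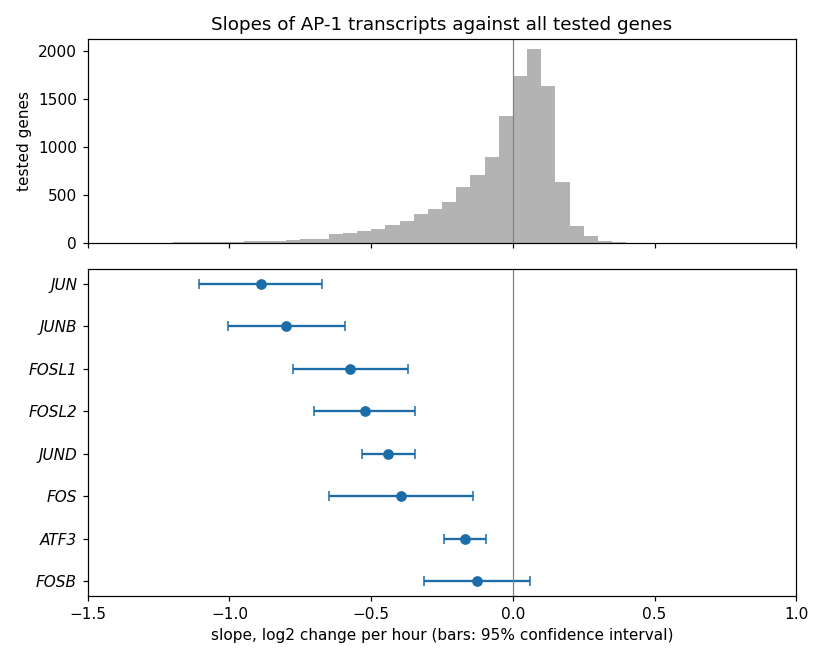
Slopes of log2 expression in time (log2 change per hour): the histogram shows all 12032 tested genes, and the points below show the 8 AP-1 transcripts with 95% confidence intervals. The 7 called transcripts lie left of 0 with intervals that end below 0, from JUN at -0.89 to ATF3 at -0.17, and the interval of FOSB includes 0.

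Of the JUN family, JUN itself, the founding AP-1 subunit, had the lowest fitted slope of the 8. In the comparison of pairs below, JUN was not called different from JUNB, FOSL1 or JUND over the 4 h. Its CPM in replicates 1, 2 and 3 was 48.1, 42.4 and 33.3 at 0 h, 25.9, 23.5 and 13.9 at 1 h, 6.76, 6.28 and 3.68 at 2 h, and 4.74, 5.32 and 3.59 at 4 h. The 0, 1 and 2 h groups did not overlap, the 2 and 4 h groups did, and replicate 3 was the lowest at every time. The slope was -0.89 log2 per h (SE 0.102, adjusted p = 1.18e-06 by edgeR), the 85th lowest of all tested genes, and corresponds to a half-life of 1.12 h (95% confidence interval 0.904 to 1.48). At 4 h the mean was 11.0% of that at 0 h, with a fitted change of -3.17 log2 (SE 0.261, adjusted p = 1.58e-07 by edgeR).

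The loss of JUN was not steady. Between 0 and 1 h it changed by -0.97 log2 (SE 0.213, adjusted p = 0.0260 by edgeR), and between 1 and 2 h by -1.92 (SE 0.259, adjusted p = 0.000172), a half-life of 0.52 h within that hour. Between 2 and 4 h the change was -0.28 log2 (SE 0.319, adjusted p = 0.548). The rate per hour between 2 and 4 h was higher than that between 0 and 2 h by 1.30 log2 per h (SE 0.253, adjusted p = 0.0126 by edgeR), so that nearly all of the measured loss came in the opening 2 h. A straight line half-life therefore averages a fast and a slow phase for this transcript, and over the 0, 1 and 2 h libraries alone the slope was -1.36 log2 per h (adjusted p = 2.27e-05 by edgeR). The first hour's call was lost without replicate 1 (adjusted p = 0.228) or replicate 2 (adjusted p = 0.360), and the difference in rate likewise (adjusted p = 0.160 and 0.314), with the directions kept in edgeR's fit. In those fits only 31 and 1 of all tested genes were called lower in the first hour, against 269 with all replicates. When the replicate number was a block, edgeR's adjusted p for JUN was 1.73e-10 for the first hour and 1.68e-08 for the difference in rate.

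JUNB, a JUN relative that is itself an immediate early gene, was far less abundant than JUN at 0 h and also fell. Its CPM was 5.21, 3.955 and 5.06 at 0 h, 2.78, 3.34 and 2.72 at 1 h, 1.59, 1.22 and 0.387 at 2 h, and 0.474, 0.871 and 0.560 at 4 h. The 0 h group lay above the 1 h group and the 1 h group above both later ones, which overlap and rest on 4 to 16 counts per library. The slope was -0.80 log2 per h (SE 0.0978, adjusted p = 2.31e-06 by edgeR), a half-life of 1.25 h (95% confidence interval 0.993 to 1.69). Its fastest hour was also that from 1 to 2 h, with a change of -1.46 log2 (SE 0.343, adjusted p = 0.00908 by edgeR, and 0.127 without replicate 2). JUNB's exon overlaps those of HOOK2 on the other strand, and since it is not stated whether the counting used strand, its counts are uncertain to that extent. The slope of HOOK2 was 0.13 log2 per h (adjusted p = 0.145 by edgeR).

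JUND, which is expressed in unstimulated cells of many tissues and often opposes JUN in growth control, fell later and more evenly. Its CPM was 36.6, 38.2 and 53.4 at 0 h, 32.2, 34.7 and 40.8 at 1 h, 24.6, 24.3 and 33.6 at 2 h, and 11.0, 13.2 and 13.6 at 4 h. The 4 h libraries were far below all others, while the 1 h libraries overlapped both the 0 and the 2 h libraries, and replicate 3 was the highest at every time. The mean was 84.0% of the 0 h level at 1 h, 64.4% at 2 h and 29.4% at 4 h. The slope of -0.44 log2 per h (SE 0.0443, adjusted p = 3.03e-07 by edgeR) gives a half-life of 2.28 h (95% confidence interval 1.88 to 2.89). With GAPDH and ACTB scaling the slope was -0.58 log2 per h. That lies below the 95% confidence interval of the TMM slope, -0.53 to -0.35, so the rate of JUND depends on the reference chosen. JUND was the 1 member called between 2 and 4 h, with a change of -1.13 log2 (SE 0.179, adjusted p = 0.000379 by edgeR), a half-life of 1.78 h within that interval. The difference of its rate between 2 and 4 h from that between 0 and 2 h was -0.24 log2 per h, which was not called without the replicate block (adjusted p = 0.729 by edgeR) and was called with it (adjusted p = 0.0331). JUND was the only member below 0 in that comparison.

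**Figure D3:**
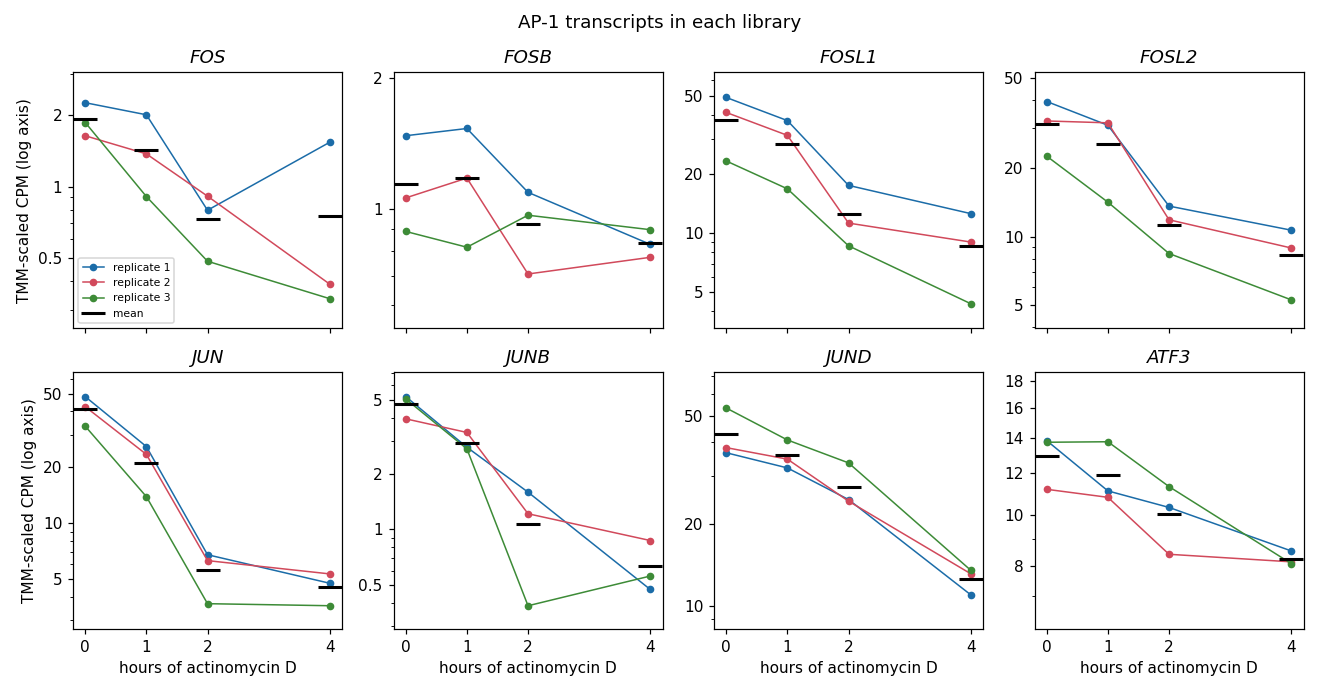
TMM-scaled CPM (log axis, with its own range in each panel) of the 8 AP-1 transcripts in each library against hours of actinomycin D, with replicates 1 to 3 as coloured lines and black bars for the mean of each time point. JUN drops from 33.3 to 48.1 CPM at 0 h to 3.68 to 6.76 CPM at 2 h and then levels off, whereas JUND keeps falling to 11.0 to 13.6 CPM at 4 h.

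Of the FOS family, FOSL1 and FOSL2, which encode the FOS-related antigens FRA-1 and FRA-2 and lack the strong activation domain of FOS, were the well-expressed members. FOSL1 stood at 49.0, 41.1 and 23.3 CPM at 0 h, 37.4, 31.4 and 16.8 at 1 h, 17.5, 11.2 and 8.61 at 2 h, and 12.6, 9.002 and 4.37 at 4 h. Neighbouring time points overlapped, because replicate 3 was the lowest at every time, but the 0 and 4 h groups did not. The slope was -0.57 log2 per h (SE 0.0957, adjusted p = 6.49e-05 by edgeR), a half-life of 1.74 h (95% confidence interval 1.29 to 2.69), and 22.9% of the 0 h mean was left at 4 h.

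FOSL2 followed nearly the same course. It stood at 39.2, 32.2 and 22.6 CPM at 0 h, 30.8, 31.6 and 14.2 at 1 h, 13.6, 11.8 and 8.42 at 2 h, and 10.7, 8.91 and 5.27 at 4 h. Replicate 3 was again the lowest at every time, and the 2 and 4 h libraries lay below all 0 and 1 h libraries. The slope was -0.52 log2 per h (SE 0.0839, adjusted p = 4.41e-05 by edgeR), a half-life of 1.91 h (95% confidence interval 1.43 to 2.90). Both transcripts fell most from 1 to 2 h, with a change of -1.19 log2 for FOSL1 (SE 0.367, adjusted p = 0.0397) and -1.17 log2 for FOSL2 (SE 0.309, adjusted p = 0.0183 by edgeR). Those calls were lost without replicate 1 (adjusted p = 0.101 and 0.118) and without replicate 2 (adjusted p = 0.370 and 0.273), and for FOSL1 with DESeq2 (adjusted p = 0.0711).

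FOS, the prototype of rapidly degraded messages, was scarce. Its counts were 23, 17 and 21 at 0 h, 21, 14 and 10 at 1 h, 8, 9 and 5 at 2 h, and 13, 4 and 3 at 4 h. Every 2 and 4 h library lay below every 0 h library, and the 13 counts of replicate 1 at 4 h stood apart from the other two. The slope was -0.40 log2 per h (SE 0.120, adjusted p = 0.00806 by edgeR), a half-life of 2.53 h with a wide 95% confidence interval of 1.54 to 7.06 h. That call was lost without replicate 2 (adjusted p = 0.0923) and with the 1, 2 and 4 h libraries alone (adjusted p = 0.163), and with the 0, 1 and 2 h libraries alone the slope was -0.65 log2 per h (adjusted p = 0.0140). The change at 4 h was -1.39 log2 (SE 0.471, adjusted p = 0.0193 by edgeR), and this too was lost without replicate 2 (adjusted p = 0.160) or replicate 3 (adjusted p = 0.0778). Without replicate 1 it was -2.23 log2 (adjusted p = 0.00448). The fitted slope of FOS, whose nonamer-bearing stretch is printed above, was not the lowest of the 8. Its interval is too wide to place FOS among JUNB, FOSL1, FOSL2 and JUND, and a link between the nonamer and the slope was not tested.

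FOSB, a close FOS relative, was the scarcest of the 8. Its counts were 15, 11 and 10 at 0 h, 16, 12 and 9 at 1 h, 11, 7 and 10 at 2 h, and 7, 8 and 8 at 4 h. The 4 h counts lay below the lowest 0 h count, but in CPM the lowest 0 h library (0.888) was under the highest 4 h library (0.897). The slope was -0.13 log2 per h (SE 0.0878, 95% confidence interval -0.31 to 0.059, adjusted p = 0.215 by edgeR). With GAPDH and ACTB scaling it was -0.26 (adjusted p = 0.00727), so at this depth the call on FOSB depends on the reference chosen.

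ATF3, a stress-induced bZIP protein of the ATF/CREB branch that can pair with JUN proteins and often acts as a repressor, was the slowest of the called transcripts. It stood at 13.9, 11.2 and 13.8 CPM at 0 h, 11.1, 10.8 and 13.8 at 1 h, 10.3, 8.41 and 11.3 at 2 h, and 8.53, 8.13 and 8.07 at 4 h. The 4 h libraries were below every 0 and 1 h library and the other neighbouring groups overlapped. The slope was -0.17 log2 per h (SE 0.0352, adjusted p = 0.00054 by edgeR), a half-life of 5.95 h (95% confidence interval 4.12 to 10.7), and 63.7% of the 0 h mean was left at 4 h. With GAPDH and ACTB scaling the slope was -0.31 log2 per h (adjusted p = 3.34e-06 by edgeR) and the change at 4 h -1.20 log2 in place of -0.65, so the rate of ATF3 depends on the reference chosen. The slope was not called with the 0, 1 and 2 h libraries alone (-0.17 log2 per h, adjusted p = 0.110).

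Set out by interval, every AP-1 transcript but JUND had its lowest fitted rate in the second hour. With TMM scaling and no block, edgeR called no interval for FOS, FOSB or ATF3. How many of all tested genes share this order was not counted. At 1 h against 0 h, JUN was the 1 member called lower by edgeR, against 2.24% of all tested genes. With the replicate block 5 members were called, namely JUN, FOSL1 (-0.41 log2, adjusted p = 0.000329), JUNB (-0.69, adjusted p = 0.0233), JUND (-0.25, adjusted p = 0.0111) and FOSL2 (-0.31, adjusted p = 0.0127), and the number of all tested genes called lower went from 269 to 1261 (10.5%). At 2 h against 0 h, 6 members were called, all but FOSB and ATF3, against 19.4% of all tested genes. ATF3 was at -0.37 log2 there (adjusted p = 0.0686 by edgeR, 0.00694 with the block and 0.0485 with library totals). Without replicate 2 the count at 2 h was 2, JUN and JUNB, against 13.1% of all tested genes in that fit. FOS was lost without any 1 of the replicates (edgeR adjusted p from 0.0583 to 0.118). At 4 h against 0 h, 7 members were called, against 31.6% of all tested genes, with a median change of the 8 of -1.84 log2 against 0.028 over all tested genes. The comparisons with 0 h share the same 3 untreated libraries.

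Between 1 and 2 h, 4 members (JUN, JUNB, FOSL1 and FOSL2) were called lower by edgeR, against 12.5% of all tested genes. The count was 2 without replicate 1 and 1 without replicate 2, when 6.85% and 5.15% of all tested genes were called lower. With the replicate block it was 6, with FOS (adjusted p = 0.0447) and JUND (adjusted p = 0.000138) added, against 20.7% of all tested genes in the same fit. Between 2 and 4 h, JUND alone was called, against 18.3% of all tested genes. With the block FOSL1 (-0.54 log2, adjusted p = 0.000741) and FOSL2 (-0.46 log2, adjusted p = 0.00716) were called as well, when the share of all tested genes was 25.3%. With GAPDH and ACTB scaling FOSL2 (adjusted p = 0.0497) and ATF3 (adjusted p = 0.0164) joined JUND, when 40.4% of all tested genes were called lower. A higher rate between 2 and 4 h than between 0 and 2 h was called for JUN alone, against 2.12% of all tested genes, and with the block also for FOSL1 (0.53 log2 per h, adjusted p = 0.00032) and FOSL2 (0.51 log2 per h, adjusted p = 0.00168), against 4.86% of all tested genes in that fit.

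**Figure D4:**
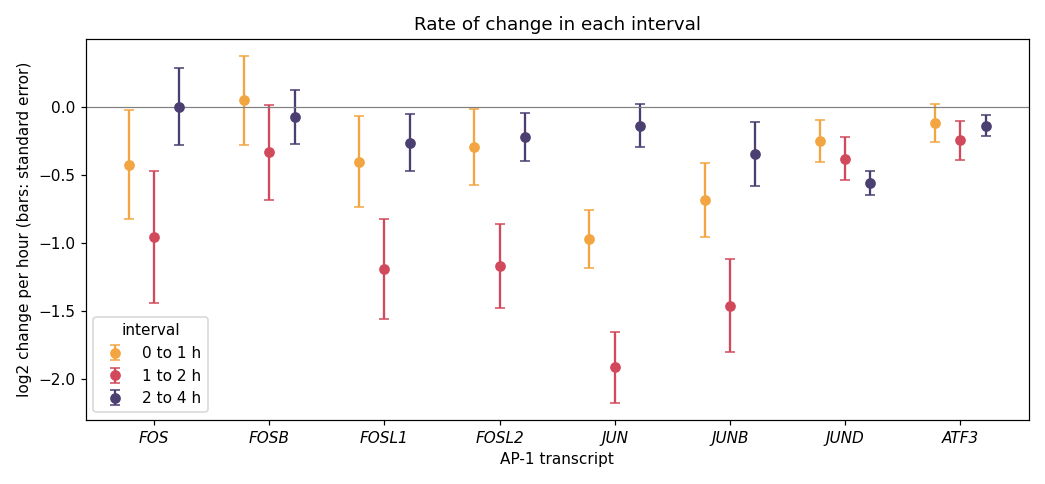
Fitted log2 change per hour in each interval for the 8 AP-1 transcripts, with bars of 1 standard error from edgeR. For all but JUND the 1 to 2 h interval is the lowest, at -1.92 log2 per h for JUN, while for JUND the 2 to 4 h interval is the lowest at -0.56 log2 per h. For FOS, FOSB and ATF3 the 1 to 2 h bar overlaps that of another interval.

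Because a ratio of 2 transcripts within a library does not depend on scaling between libraries, the slopes of all 28 pairs of members were also compared directly, by an exact two-sided permutation test of the time labels with adjustment over the 28 pairs. The test found 12 pairs that differed. The difference in slope of JUND from ATF3 was -0.28 log2 per h and varied by an SD of only 0.0061 between the 3 replicates (exact permutation adjusted p = 0.00485). Against ATF3, the difference was -0.65 log2 per h for JUN (exact permutation adjusted p = 0.00732), -0.57 for JUNB (0.00902), -0.41 for FOSL1 (0.0286) and -0.35 for FOSL2 (0.0330). All 5 transcripts were thus lost faster than ATF3. FOSB, whose own slope was not called, had a slope above that of JUN by 0.70 log2 per h, of FOSL1 by 0.46 and of FOSL2 by 0.40 (exact permutation adjusted p = 0.00485 for each), of JUNB by 0.62 (0.00709) and of JUND by 0.33 (0.0140). The slope of FOS exceeded that of JUN by 0.40 log2 per h (exact permutation adjusted p = 0.0171) and that of FOSL2 exceeded it by 0.30 (0.0163). The pairs with FOSB or FOS rest on few counts, 7 to 16 per library for FOSB and 3 to 23 for FOS. Both passed the count filter only through their 0 and 1 h libraries, so little weight can be put on these pairs. The number of pairs fell to 6 without replicate 1 and to 0 without replicate 2, and was 11 without replicate 3.

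Within families, only the differences between FOSB and the FOS-related antigens were called over the 4 h, and these rest on the low counts of FOSB. FOSL1 and FOSL2 differed by -0.061 log2 per h (SD between replicates 0.0407, exact permutation adjusted p = 0.160). JUN and JUNB differed by -0.078 log2 per h (SD 0.108, exact permutation adjusted p = 0.437). The slope of JUN minus that of JUND was -0.42, -0.37 and -0.31 log2 per h in replicates 1, 2 and 3, but the exact permutation adjusted p was 0.106. Over the 0, 1 and 2 h libraries alone, the difference was -1.14 log2 per h for JUN against JUND (exact permutation adjusted p = 0.0111) and -0.83 for JUNB against JUND (0.00741). The slope of FOSL1 exceeded that of JUN by 0.66 log2 per h in the same libraries (exact permutation adjusted p = 0.00476), and in them ATF3 was no longer called different from JUND (0.193), FOSL1 (0.116) or FOSL2 (0.135), nor FOSB from JUND (0.471).

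The make-up of the AP-1 transcript pool shifted towards ATF3 and away from JUN. The 8 transcripts together came to 72.2 ± 7.05 CPM per kb at 0 h, 54.4 ± 6.89 at 1 h, 31.3 ± 2.75 at 2 h and 19.4 ± 2.77 at 4 h (mean ± SD, 3 libraries each), or 26.9% of the 0 h level at the end. The share of ATF3 in this sum was 9.29% at 0 h (range 8.15 to 10.8%), 11.6% at 1 h, 16.5% at 2 h and 22.2% at 4 h (range 20.2 to 25.4%). The share of JUN went from 17.5% (range 15.5 to 18.5%) at 0 h to 5.49% at 2 h and 7.18% at 4 h (range 6.69 to 8.12%). For both genes the 0 and 4 h libraries did not overlap. JUND held 31.2% at 0 h, 45.7% at 2 h and 34.4% at 4 h, and FOSL1 30.3%, 23.2% and 25.3%, with overlapping ranges at 0 and 4 h. Within each replicate the FOSL1 share was lower at 4 h than at 0 h and the JUND share higher. The JUN family as a whole held 45.8%, 49.5% and 61.7% in replicates 1, 2 and 3 at 0 h and 34.2%, 44.4% and 51.6% at 4 h, lower in all 3 although the ranges overlap. The FOS family held 38.4% at 0 h and 34.5% at 4 h on average, higher in replicate 1 and lower in the other two. These changes in share were not tested. These shares do not depend on scaling between libraries.

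**Figure D5:**
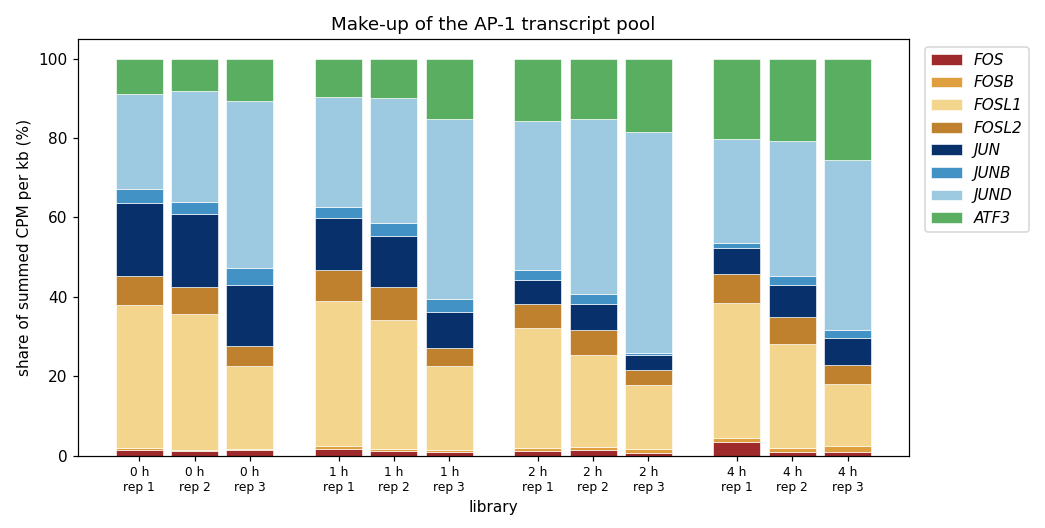
Share of each AP-1 transcript in the summed CPM per kb of the 8 (percent, stacked bars) for each of the 12 libraries, ordered by hours of actinomycin D and replicate. The ATF3 share is 8.15 to 10.8% in the 0 h libraries and 20.2 to 25.4% in the 4 h libraries, and replicate 3 has the largest JUND share at every time.

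Replicates differed in the balance of AP-1 transcripts in a way that held at every time point. Replicate 3 had the lowest FOSL1, FOSL2 and JUN at 0, 1, 2 and 4 h, by a mean of -1.01, -0.82 and -0.65 log2 against the other two replicates. It had the highest JUND at all 4 times, by a mean of 0.36 log2. The replicate number also tied libraries together over all genes. After the mean of each time point was removed, same-numbered libraries correlated at 0.300 to 0.612 in all 18 pairs of libraries. Differently numbered ones correlated at -0.403 to 0.0842. Because the mean was removed, these negative values follow from the positive ones and are not separate evidence. What a replicate number stands for, such as a day or a passage, is not given in the sources used here.

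The 8 transcripts did not fall in the order of their pentamers or nonamers when ranked by slope. Other 3′ UTR elements were not searched for, and a link between these motifs and the slopes was not tested. FOS and FOSL2, which carry the nonamer, had slopes of -0.40 and -0.52 log2 per h, while JUN and JUNB, with the 2 lowest slopes, carry isolated pentamers such as those printed above. ATF3 and JUN have the same number of pentamers (3) at 2.46 and 2.34 per kb, with slopes of -0.17 and -0.89. FOSL1 and JUND, with 1 pentamer each, had slopes of -0.57 and -0.44. Over all tested genes with a 3′ UTR, the median slope was 0.078 log2 per h for genes with no pentamer and -0.012 for those with at least 1. It was 0.014 for genes with no nonamer, -0.047 for those with 1 and -0.049 for those with 2 or more. Genes with more pentamers also have longer 3′ UTRs, with a median of 397 bases for genes with none and 1949 bases for the rest.

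AP-1 genes are known targets of AP-1 and CREB/ATF proteins, so the promoters were searched as well, on both strands, for the AP-1 site TGANTCA, the cAMP response element TGACGTCA, the related TGACATCA, and the CArG box bound by serum response factor. RefSeq promoter entries (GRCh38.p14, 250 bases before to 50 after the start) matched 7 of the 8 genes, with FOSL1 the one not matched. The matches are in capitals in the 30-base stretches below, and those of JUN and ATF3 are matches of the same searched motif.
JUN chr1:58784096-58784125 (-): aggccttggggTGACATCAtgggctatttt
ATF3 chr1:212565273-212565302 (+): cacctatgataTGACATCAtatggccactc
JUND chr19:18281804-18281833 (-): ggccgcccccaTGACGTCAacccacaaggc
FOSL2 chr2:28392850-28392879 (+): gtgccattgtagTGACTCAtctcgggcaga

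Counted from the start of transcription, the TGACATCA of JUN begins at position -67 and that of ATF3 at -123, and 2.61% of the 35116 promoter entries hold this motif. JUND carries TGACGTCA at -200, a motif held by 1.85% of entries. FOSL2 carries TGACTCA just after the start, and 7.71% of entries hold the AP-1 site TGANTCA with any middle base. No CArG box was found in the windows of the 7 genes, and 1.29% of all entries have one. The search could not find a box farther than 250 bases before the start, so it does not show that these genes lack one. Transcription was blocked in this experiment, so the counts carry no reading of what these promoters do.

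Relatives and regulators of AP-1 were described by lists that had been chosen with earlier results of these data known. Of 34 bZIP partners and relatives, 27 were tested, 13 fell, 4 rose and 10 were not called on the slope (edgeR, TMM scaling), with a median of -0.13 log2 per h. Over all tested genes the shares were 32.1% lower and 30.7% higher, and with GAPDH and ACTB scaling 64.2% and 0.931%, which are the background for each list here. The steepest was CEBPB (-0.74, adjusted p = 1.02e-07 by edgeR), a regulator of inflammation and differentiation. DDIT3, the CHOP protein of the stress response, was at -0.69 (adjusted p = 8.19e-09 by edgeR). BACH1 and CEBPG (both -0.42 log2 per h) and NFE2L2 (-0.36), which encodes the antioxidant regulator NRF2, also fell. The 4 that rose were ATF6B (0.15 log2 per h), NFE2L1 (0.079), ATF5 (0.076) and CREB3 (0.074), named here because they are so few, with 2 rising under library totals and none when GAPDH and ACTB set the scale, under which 24 of 27 fell. JUN and JUNB had slopes below all 13.

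Of 25 upstream activators, the kinases and serum response or MEF2 factors that induce AP-1 genes, 24 were tested, 9 fell and 8 rose on the slope (edgeR), shares near that background, with a median of -0.0056 log2 per h. The kinase gene MAP3K1 (-0.53), the serum response factor coactivator genes MRTFA (-0.47) and MRTFB (-0.39), listed under their older names MKL1 and MKL2, and MAPK7 (-0.25) had the largest slopes. Under library totals 4 rose, and with GAPDH and ACTB scaling 16 fell and none rose. All 12 genes on the list of AU-rich and Pumilio mRNA-binding proteins were tested, of which 5 fell and 4 rose. Among the fallen were ZFP36L2 (-0.71 log2 per h, adjusted p = 8.22e-09 by edgeR), ZFP36 (-0.61), PUM2 (-0.38) and ZFP36L1 (-0.36). The ZFP36 proteins bind AU-rich elements and promote deadenylation, and ZFP36 itself, with a mean of 18.7 counts, was named after its value was seen. The 4 that rose (TIA1, HNRNPD, ELAVL1 and TIAL1, slopes of 0.038 to 0.066 log2 per h) were called under TMM scaling, but none was under library totals or under GAPDH and ACTB scaling.

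Commonly cited AP-1 target genes, of which 18 of 24 were tested, were mostly not lower at later times, in that 2 fell and 8 rose on the slope (edgeR, TMM scaling), with a median of 0.064 log2 per h. The fallen were the growth factor gene HBEGF (-0.19 log2 per h, adjusted p = 0.0139) and the phosphatase gene DUSP1 (-1.46 log2 per h, adjusted p = 1.36e-07 by edgeR), the latter named after its value was seen. The call on HBEGF was lost without replicate 2 (adjusted p = 0.154), with the 0, 1 and 2 h libraries alone (0.133) and with the 1, 2 and 4 h libraries alone (0.0721). TGFB1 (0.16 log2 per h), HMGA1 (0.15) and the metallothionein gene MT2A (0.15, adjusted p = 0.00293) had the largest upward slopes, but with GAPDH and ACTB scaling they stood at 0.020, 0.013 and 0.0079 with no call, and 8 of the 18 fell and none rose.

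For the 5 members with a mean of at least 100 counts, the genes with the most similar course were taken as those with the smallest root mean square difference in log2 change at 1, 2 and 4 h against 0 h (3 values from 12 libraries). For JUN these were IER2 (0.101 log2), ZNF574 (0.133) and C15orf39 (0.25), more distant than the nearest genes of the other members. IER2, another immediate early gene, stood at -1.01, -2.95 and -3.01 log2 at 1, 2 and 4 h, so it levelled off after 2 h as JUN did. For FOSL1 they were OTX2 (0.0722), CNOT4 (0.0743) and ZNF398 (0.0985), and for FOSL2 ELMSAN1 (0.0298), RGMB (0.0480) and AHDC1 (0.0581). For JUND they were GDF6 (0.0292), VPS18 (0.0355) and WAPAL (0.0402), and for ATF3 LATS2 (0.00892), BRPF3 (0.0119) and SPATA5L1 (0.0148). Likeness was measured on these libraries alone.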

How the data were processed

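RNA-Seq was performed on 12 A673 (shA673-1c) libraries, with 3 biological replicates at 0, 1, 2 and 4 h of actinomycin D, grouped as labelled. The files deposited by the authors hold raw, whole-number counts for each gene symbol. Per the labels' processing notes, FastQC, STAR and hg19 were used; versions, the counter and its strand setting are not given in the sources used here. Poly(A) selection measures tailed RNA only. Members and lists were chosen with earlier results of these data known.

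Genes averaging 10 counts or more per library were fitted with edgeR 4.0.16 in R 4.3.3 (TMM, quasi-likelihood, Benjamini-Hochberg, threshold 0.05), with time as a number or as 4 groups and no block. The common biological coefficient of variation was 0.0905. Standard errors were derived from the p-value and degrees of freedom, and half-life was taken as -1 over the slope. Pairs of members were compared on log2 count ratios (0.5 added) by exact permutation of the time labels over 369600 arrangements with numpy 2.4.6. The code was tested on simulated data. Sampling noise was exceeded in all 12 pairs of replicates (chi-square per degree of freedom 3.07 to 8.15). Same-numbered libraries correlated above 0.1 in every pair, so the numbers were taken to pair the samples. Only the replicate block used this pairing, and its values are printed where they change a call. All other SEs, intervals and p-values, and the main test of pairs of members, took no account of it. Every member's slope SE was lower with the block, from 0.0957 to 0.0492 for FOSL1 and from 0.0878 to 0.0868 for FOSB. Transcript lengths and 3′ UTRs are from GENCODE version 44 and promoters from RefSeq, both matched by symbol on GRCh38, so no coordinates of the files' build were used. Named list genes were those called with a mean of at least 100 counts, up to the 4 of largest slope per list, and bZIP relatives with a slope below -0.5; some of these are not reported here. The alternatives tried were scaling by library totals, by DESeq2's size factors or by GAPDH and ACTB, DESeq2 1.42.0's test, no filter, a minimum mean of 50 counts, the block, each replicate left out, fewer time points and 1 added to the counts of pairs.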

Additional observations from a re-analysis of the deposited data

How the results depend on the processing

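No member's direction reversed beyond the threshold under any alternative run, and the counts of 7 members lower on the slope and at 4 h against 0 h stayed within 1.5 times under all of them. With the replicate block, members lower numbered 5 at 1 h against 0 h (1 without it; all genes 1261 against 269), 3 at 4 h against 2 h (1 without it; all genes 3046 against 2199), and for the late minus early rate 3 higher (1 without it; all genes 585 against 255) and 1 lower (0 without it; all genes 426 against 41). The block changed no pair's call (12 of 28 with and without it) and lost no member's call. With GAPDH and ACTB scaling, 3 members were lower at 4 h against 2 h, when 40.4% of all genes were, and over all genes 7729 fell and 112 rose on the slope, against 3859 and 3694. Leaving out 1 replicate in turn gave 0 to 1 members lower at 1 h, 2 to 5 at 2 h against 0 h and 1 to 5 at 2 h against 1 h. It gave 0 to 1 with a higher late rate, and 0 to 11 pairs. Calls over all genes fell too. Without replicates 1, 2 and 3, all genes lower numbered 31, 1 and 158 at 1 h (269 with all replicates). At 2 h against 0 h they numbered 1721, 1581 and 2136 (2340), and at 2 h against 1 h 824, 620 and 1315 (1504). All genes with a higher late rate numbered 30, 31 and 128 (255). Fewer samples leave fewer degrees of freedom. Without replicates 1, 2 and 3, 5, 11 and 2 of 56 single member results lost their call. FOS, FOSB and JUNB fall under a minimum mean of 50 counts and were not tested there. Depth limits FOS and FOSB, with at most 23 counts in a library.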
